A study of Gallus gallus with 16 samples.

Results

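The 120 genes described here were those whose level in the pituitary gland of laying hens stood furthest above both the ovary and the hypothalamus. They were chosen from the deposited FPKM table (a level from sequenced fragments, scaled for gene length and for library size). A gene was eligible when it was listed above 0 in all 6 pituitary libraries with a pituitary mean of at least 5 FPKM, which 9171 of 17108 rows met. For each eligible gene, the log2(mean FPKM + 1) of the 5 ovary libraries or of the hypothalamus libraries HEP 3 and LEP 4, whichever was higher, was subtracted from that of the pituitary, and the 120 largest differences were taken. The excess over the other tissues is therefore how the genes were found, and it is given below as a description without a test.

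The libraries came from 6 female chickens of the Chinese Luhua breed at 300 days of age, with feed and water freely available. Of 856 birds, the 200 that had laid the most eggs formed the high egg production group (HEP) and the 200 that had laid the fewest the low group (LEP). Hens 1, 2 and 3 were HEP and hens 4, 5 and 6 were LEP, with a pituitary library from each. Ovary and hypothalamus were each represented by hens 1 and 3 of HEP and hens 4, 5 and 6 of LEP. The labels name no treatment other than this ranking, and they give the pituitary as a whole gland, without naming a lobe.

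The anterior lobe of the pituitary holds several kinds of endocrine cell, each known for making its own hormone, among them growth hormone, prolactin, the gonadotropins, thyrotropin and corticotropin. Factors from the hypothalamus reach these cells through portal vessels and set how much hormone they release, and in a laying hen the gonadotropins act on the ovary. The hormone genes, and the transcription factors that set up each kind of cell, are textbook markers of this gland, while genes for storing hormone in granules are shared with neurons and other endocrine cells. The deposited table gives Ensembl gene identifiers without names. Of its 17108 identifiers, 0 matched the reference gene table of 25635 chicken genes used here. No gene below is therefore tied to a hormone or to any other function. The tissue labels could not be checked against defining markers for the same reason. Nor could the lists of pituitary hormones, transcription factors, receptors and secretory genes, or the markers of other cell types, be applied.

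In 13 of the 16 libraries, 13713 to 14356 rows were listed above 0. The hypothalamus libraries HEP 1, LEP 5 and LEP 6 listed 6186, 6843 and 6465 rows, and the rule for the 120 genes did not use these 3. In the pituitary, HEP 1 stood closer to 2 other libraries than any other pair stood to each other. The median absolute deviation of the log2 FPKM ratio over the 11664 genes above 0 in all 6 pituitaries and with a mean of at least 1 FPKM there was 0.122 between HEP 1 and LEP 4 and 0.138 between HEP 1 and HEP 3. It was 0.183 to 0.282 in the other 13 pairs. Of the 65 such genes at least 4-fold apart between LEP 4 and HEP 3, HEP 1 lay between them in 62 (95.4%). For the other 59 ways of setting 1 pituitary library between 2 others this share was 11.8% to 87.2%, with a median of 68.1%. With HEP 1 in the middle of any other pair it was 76.2% to 87.2%, and with another library in the middle at most 78.5%. The shares with HEP 1 in the middle were thus mostly above those with another library there, though the ranges overlapped from 76.2% to 78.5%. The share was highest for HEP 1 between LEP 4 and HEP 3. For the 65 genes the HEP 1 pituitary mostly lay between a LEP and a HEP library. Whether reads of these libraries were mixed was not tested. The HEP means, SDs and n = 3 below take HEP 1 as a separate HEP hen, as it is labelled, and would not stand for 3 independent hens if they were. The counts of pituitary genes that passed, and of negative and positive differences, are also given without it, and the genes named for them hen by hen. The counts of an unadjusted p and of groups without overlap, and the means and exact p of ratios, are given only with HEP 1. Its part in these results was not otherwise tested.

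**Figure D1:**
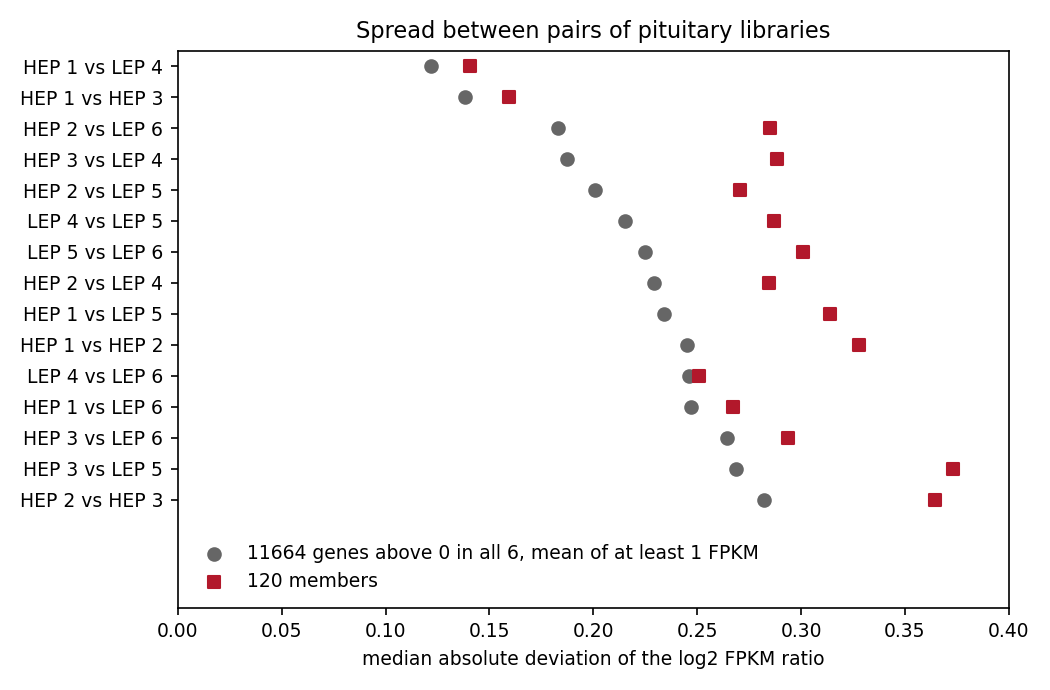
Spread between each of the 15 pairs of pituitary libraries, as the median absolute deviation of the log2 FPKM ratio (x axis), for the 11664 genes above 0 in all 6 with a mean of at least 1 FPKM (grey circles) and for the 120 pituitary-specific genes (red squares). The 2 pairs of HEP 1 with LEP 4 and with HEP 3 have the smallest spread, 0.141 and 0.160 over the 120 genes against 0.251 to 0.373 in the other 13 pairs.

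The spread of HEP 1 to LEP 4 and to HEP 3 was also the smallest over the 120 genes. HEP 1 held the highest pituitary value for 0 of the 120, and for 231 of the 11820 genes tested between production groups (1.95%). It held the lowest for 19 of the 120 (15.8%), close to the 17.5% of all genes tested.

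Pituitary means of the 120 genes ran from 10.1 to 29510 FPKM. The median was 46.1 FPKM and the quartiles were 20.5 and 130.5 FPKM. A mean of at least 100 FPKM was reached by 35 genes, of at least 1000 FPKM by 4 and of at least 10000 FPKM by 3. The 120 genes together made up 2.88% to 4.46% of the summed FPKM of a pituitary library. The 3 rows of highest mean over the 16 libraries, none of them among the 120, took 58.1% to 68.9% of that sum, and without them the share of the 120 genes was 9.27% to 12.8%. In ovary libraries that last share was 0.023% to 0.046%, and in hypothalamus libraries 0.031% to 0.130%. A group of 3 genes supplied 82.2% to 87.5% of the summed level of the 120 in each pituitary, so the pituitary sum mostly reports on these 3.

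ENSGALG00000000249 had the highest pituitary mean of the set and the 5th highest of all rows. It was listed at 21818, 17037 and 20194 FPKM in the pituitaries of HEP hens 1, 2 and 3, and at 27423, 36046 and 54546 FPKM in those of LEP hens 4, 5 and 6. All 3 LEP values lay above all 3 HEP values. Outside the gland its highest ovary value was 2.68 FPKM, and in the 5 hypothalamus libraries it stood at 4.58 to 19.8 FPKM.

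ENSGALG00000028564 was the next most abundant. The pituitaries of the HEP hens held 21991, 24169 and 21197 FPKM, and those of the LEP hens 22545, 17837 and 30761 FPKM, so the HEP values fell within the LEP range. It was also the member with the highest mean in ovary, at 22.3 FPKM, which was 0.0966% of its pituitary mean.

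ENSGALG00000015824 came after it, at 12606, 15525 and 13467 FPKM in HEP pituitaries and 13016, 8646 and 18708 FPKM in LEP pituitaries. LEP 6 was the highest pituitary for all 3 of these genes, and LEP 5 the lowest for the second and the third. In hypothalamus this gene was uneven. HEP hens 1 and 3 held 0.775 and 72.5 FPKM there, and LEP hens 4, 5 and 6 held 0.695, 509.8 and 16.3 FPKM, while no ovary exceeded 0.831 FPKM. Of these hypothalamus libraries, HEP 1, LEP 5 and LEP 6 are those that listed few rows above 0 and that the rule did not use.

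Next in level came ENSGALG00000002550, at 814 to 1798 FPKM in pituitary, and ENSGALG00000004860, at 516 to 780 FPKM. The second of these was less restricted, with 42.99 FPKM as its mean in the 2 hypothalamus libraries of the rule, the highest such mean of the 120. ENSGALG00000000788 stood at 423 to 959 FPKM in pituitary and at no more than 0.365 FPKM in any ovary or hypothalamus library. Its pituitary mean was 550.2 FPKM, far below those of the 3 leading genes, and in pituitary LEP 6 stood well above the other hens.

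**Figure D2:**
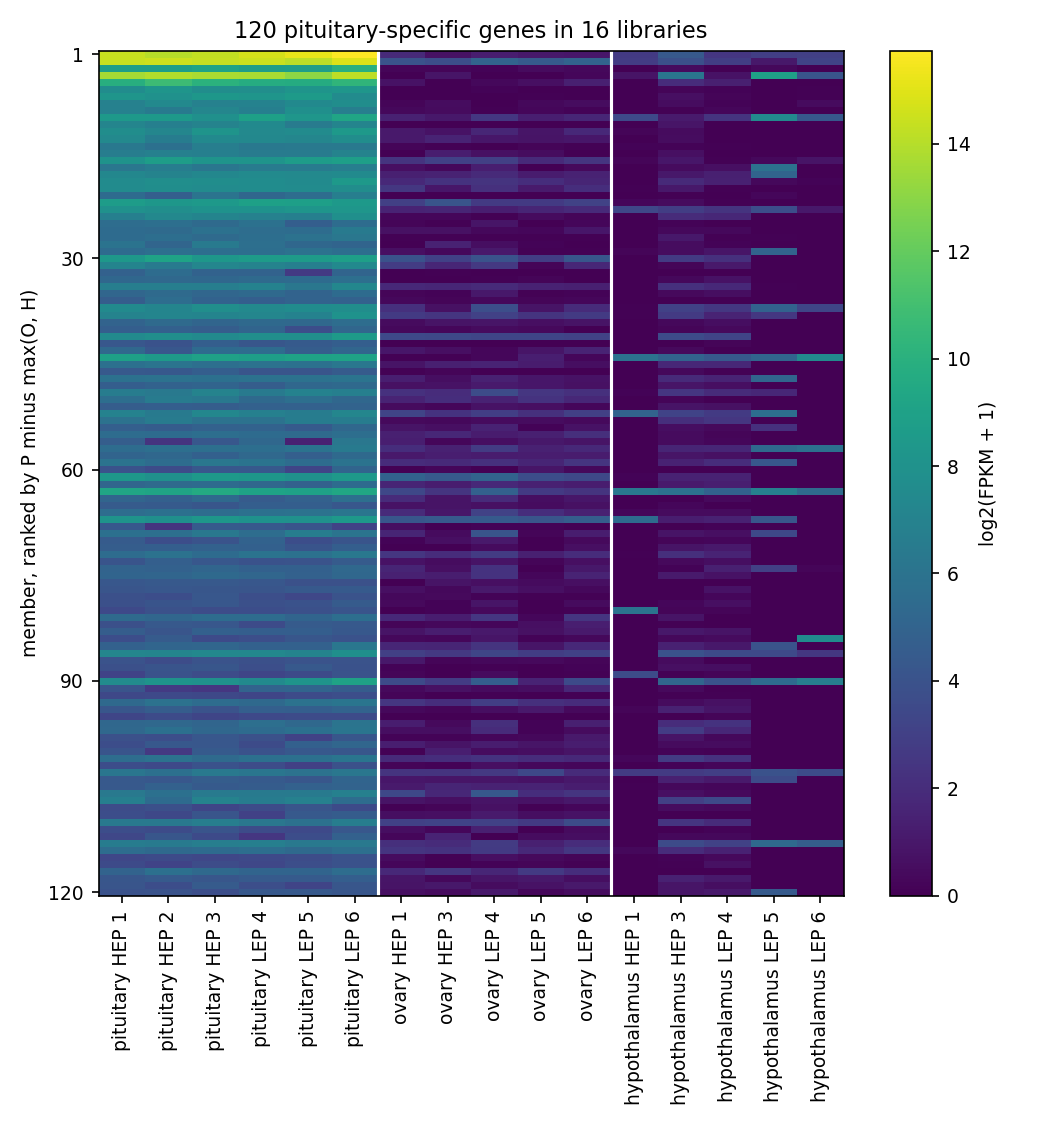
Levels of the 120 genes (rows, ranked from the largest difference at the top) in the 16 libraries (columns, by tissue, group and hen), as log2(FPKM + 1). The 6 pituitary columns are higher than the ovary and the hypothalamus columns HEP 3 and LEP 4 by the rule, and the hypothalamus columns HEP 1, LEP 5 and LEP 6 are mostly at 0 with isolated high values.

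The difference that ranked the genes ran from 3.13 to 11.13 on the log2 scale, with a median of 3.84, and the largest belonged to ENSGALG00000000249, ENSGALG00000028564 and ENSGALG00000000788. The edge of the set was not a gap. The last gene inside, ENSGALG00000003833, had a difference of 3.13, with 16.3 FPKM in pituitary, 0.531 FPKM in ovary and 0.969 FPKM in hypothalamus. The first outside, ENSGALG00000023638, had a difference of 3.12, with 16.9, 0.109 and 1.05 FPKM. For all 120 genes the lowest pituitary library lay above the highest ovary library, and also above the 2 hypothalamus libraries of the rule. The rule chose on the means of these same libraries, so this is a description of the choice. The share of the other eligible genes with such a gap was not counted.

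The tissue with the second highest level was the ovary for 72 genes and the hypothalamus for 48. The ovary level was 2.23% of the pituitary level at the median of the 120 genes and 9.58% at most. The hypothalamus level, from the 2 libraries of the rule, was 1.05% at the median and 10.1% at most. In 58 genes the means of both tissues were under 1 FPKM, while 16 genes reached 5 FPKM in ovary, 14 in hypothalamus and 7 in both. After ENSGALG00000028564, the highest ovary mean was that of ENSGALG00000015110, at 20.5 FPKM in ovary and 242 to 369 FPKM in pituitary. The 5 ovaries were listed at 0 for 4 genes, and both hypothalamus libraries of the rule for 5. No gene was listed at 0 in all of these 7 libraries.

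Between the 2 hypothalamus libraries of the rule, 99 of the 120 genes were above 0 in both, and 64 of them (64.6%) were higher in HEP 3. In the eligible genes not chosen this share was 88.7% of 9003. The rule chose the 120 for low levels in these 2 libraries. A mean under 1 FPKM there was found for 79 of the 120, beside 238 of the 9051 not chosen. The 2 shares thus compare genes at unlike levels. The median log2 ratio of HEP 3 over LEP 4 was 0.50 in either group of genes. These are a single library of each production group, so no comparison of HEP with LEP was made in them.

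The hypothalamus libraries HEP 1, LEP 5 and LEP 6 are samples the rule did not use. There, 35, 38 and 22 of the 120 genes were listed above 0, which is 29.2%, 31.7% and 18.3%. Among the 9051 eligible genes outside the set the shares were 59.0%, 64.4% and 61.3%. In all 3 libraries 64 of the 120 genes were listed at 0, and 12 were above 0 in all 3. These libraries list few genes of any kind, and an exact 0 may be an estimate that failed, so a 0 here is not taken as an absent transcript. Of the 79 members with a mean under 1 FPKM in HEP 3 and LEP 4, 26 (32.9%) were above 0 in at least 1 of these libraries. For the 238 such genes not chosen the share was 17.6%. Where that mean reached 1 FPKM the share was 73.2% of 41 members and 85.6% of 8813 genes outside. The lower share above 0 among the 120 thus held where that mean reached 1 FPKM and did not hold where it was under 1 FPKM. The rule used these same means to choose the 120, so the split is a description. The genes not chosen are no matched background for it.

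**Figure D3:**
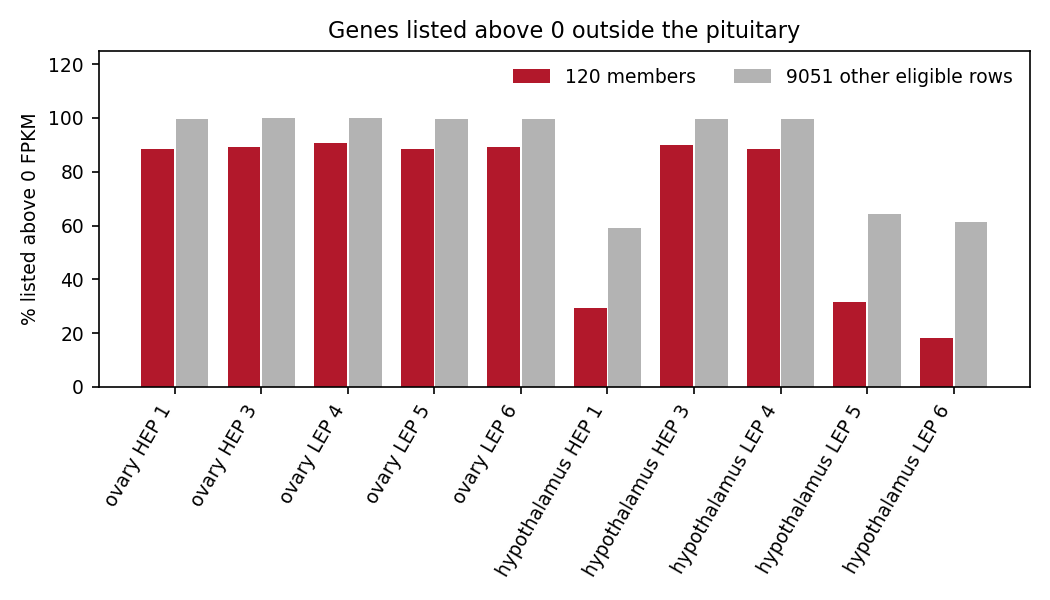
Share of genes listed above 0 FPKM (y axis, %) in each ovary and hypothalamus library, for the 120 genes (red) and the 9051 other eligible rows (grey). In hypothalamus HEP 1, LEP 5 and LEP 6 the shares are 29.2%, 31.7% and 18.3% against 59.0%, 64.4% and 61.3%.

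Where a member was above 0 in these 3 libraries, its level could be high. For 115 of the 120 genes each of the 3 libraries lay below the lowest pituitary, and for 3 genes a library exceeded the highest pituitary. The 120 were chosen for a high pituitary level, and 64 of them were at 0 in all 3 libraries. The same shares were not counted for the other eligible genes. Besides ENSGALG00000015824, the highest mean over the 3 was that of ENSGALG00000026903, at 60.2, 34.7 and 188.8 FPKM in HEP 1, LEP 5 and LEP 6, with 385 to 554 FPKM in pituitary. This gene was also at 30.7 and 20.1 FPKM in hypothalamus HEP 3 and LEP 4, but at no more than 1.51 FPKM in ovary. It was thus listed in every hypothalamus library.

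The 120 genes varied between hens to very different degrees. The coefficient of variation over the 6 pituitaries had a median of 22.1%, from 4.84% to 100.6%, and its median over the 9051 eligible genes outside the set was 16.6%. It was under 10% in 5 genes and over 50% in another 5. The steadiest were ENSGALG00000026881, at 189 to 213 FPKM, and ENSGALG00000027836, at 55.8 to 64.6 FPKM. The ratio of the highest to the lowest pituitary was 1.13 and 1.16 for them, and 1.78 at the median of the 120.

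ENSGALG00000003179 varied most, by 42.9-fold. Among the HEP hens the values were 24.0, 4.15 and 18.1 FPKM, and among the LEP hens 36.9, 1.72 and 73.8 FPKM. Low and high hens occurred in either group, and the lowest and the highest value were both LEP.

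LEP 6 held the highest pituitary value for 68 of the 120 genes (56.7%), followed by HEP 3 with 25 (20.8%). Over all 11820 genes tested, LEP 6 was highest for 48.4% and HEP 3 for 28.9%. The median deviation of LEP 6 from a gene's mean was 0.29 on the log2 scale for the 120 and 0.20 for all genes tested, so LEP 6 was the highest library in either group of genes. HEP 2 and LEP 5 held the lowest value for 29 and 32 of the 120 genes (24.2% and 26.7%), against 27.7% and 27.5% of all genes tested.

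The contrast that the study was designed for, HEP against LEP, was not used to choose the genes. The rule did use the mean of the same 6 pituitary libraries, which a high value in a single library such as LEP 6 raises. The differences below are thus not wholly independent of the choice. HEP against LEP was tested in the pituitary with limma on log2(FPKM + 1), in 3 HEP and 3 LEP libraries and over the 11820 genes with a mean of at least 1 FPKM. All 120 genes were among them, since the rule asked for at least 5 FPKM. None of the 120 passed an adjusted p of 0.05, higher or lower in HEP, where 0% of all genes tested passed in either direction. An unadjusted p under 0.05 was found for 6 of the 120 (5%), of which 1 was higher and 5 were lower in HEP, beside 2.06% of all genes (244).

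Without a test for the set, more of the 120 genes were lower than higher in HEP. The difference was negative for 86 and positive for 34, which is 71.7% negative beside 57.8% of all genes tested. Their median difference was -0.13 on the log2 scale, beside -0.03 for all genes. In 112 of the 120 (93.3%) it was smaller than 0.5 in size, as in 96.2% of all genes tested. All 3 HEP libraries lay below all 3 LEP libraries in 10 of the 120 (8.33%), beside 3.84% of all genes. They lay above in 0 of the 120, beside 1.29% of all genes. The 10 genes had pituitary means of 16.3 to 29510 FPKM and differences of -1.82 to -0.24, with a median of -0.33. In 7 of the 10 the highest library was LEP 6. By their choice it could only be a LEP library, and over the 120 genes LEP 4, 5 and 6 were highest in 8, 10 and 68. Since each gland was sequenced in bulk, fewer cells of a type and less RNA per cell cannot be told apart in any of these differences.

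These counts moved when libraries were left out. Without LEP 6, the highest library, 65 of the 120 genes were negative and 55 positive, and their median difference was -0.01 beside 0.06 for all genes. Without HEP 1 it was 82 and 38, with a median of -0.10 beside -0.01. After median-ratio scaling of the libraries it was 83 and 37, with a median of -0.10 beside -0.00 for all genes. The share of all genes with a negative difference was not counted in these settings. In each of them the median of the 120 genes stayed below that of all genes.

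**Figure D4:**
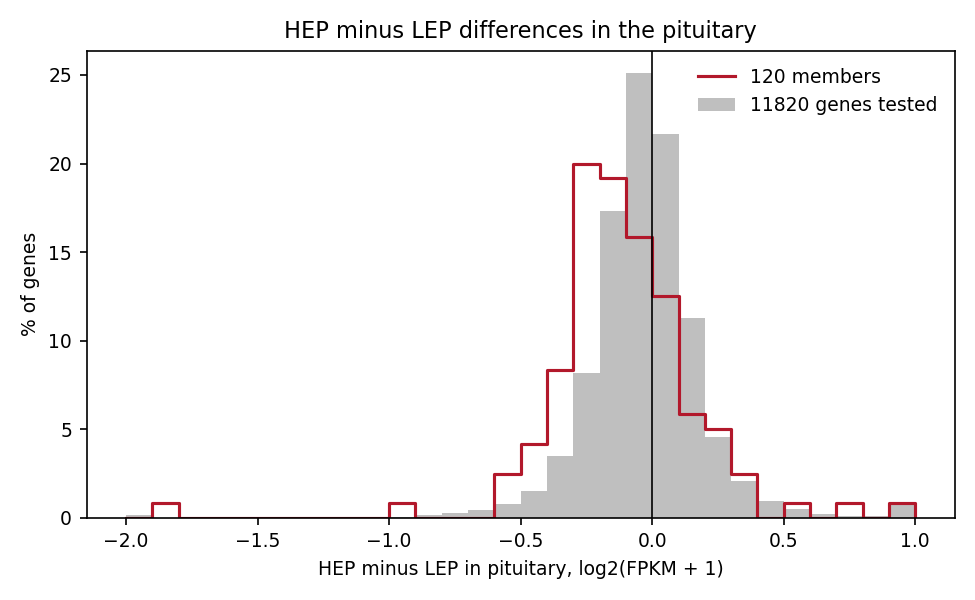
HEP minus LEP differences in the pituitary (x axis, log2(FPKM + 1)) for the 120 genes (red line) and the 11820 genes tested (grey bars), as a percentage of each (y axis), with values beyond the ends of the axis placed in the end bins. The 120 genes are shifted to the left, with a median of -0.13 beside -0.03, and none passed an adjusted p of 0.05 in limma.

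ENSGALG00000004298 had the largest difference of the set. The HEP pituitaries of hens 1, 2 and 3 held 15.9, 5.29 and 4.68 FPKM, and the LEP pituitaries of hens 4, 5 and 6 held 31.9, 32.1 and 23.2 FPKM. No ovary exceeded 2.38 FPKM. HEP hens 2 and 3 were far below every LEP hen, and HEP 1 lay between the groups. HEP averaged 8.61 ± 6.29 FPKM and LEP 29.1 ± 5.08 FPKM (SD, n = 3 each), and the log2 difference of -1.82 (SE 0.37) did not pass (limma, adjusted p = 1.00). Without HEP 1, the library that lay between LEP 4 and HEP 3, the difference was -2.32 and it passed (limma, adjusted p = 0.00305), the only one of the 120 genes to do so. That fit rested on HEP 2 and HEP 3 alone. HEP 1 held the HEP value nearest to LEP, so leaving it out had to widen the difference. The gene is also among the 65 that showed HEP 1 between LEP 4 and HEP 3, so the call is no separate evidence. Passing as lower in HEP without HEP 1 was found for 0.0169% of the 11824 genes then tested, and the same share passed as higher. In the other 14 alternatives the gene did not pass, with a limma adjusted p of 0.768 to 1.00.

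ENSGALG00000000249, with the values given above, averaged 19683 ± 2431 FPKM for HEP and 39338 ± 13858 FPKM for LEP (SD, n = 3 each). The log2 difference of -0.95 (SE 0.32) did not pass (limma, adjusted p = 1.00). Without LEP 6 the difference was -0.68, and without HEP 1 it was -1.03, and neither passed.

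A ratio of 2 genes within a library does not depend on how that library was scaled. The ratios of the 3 leading genes were therefore compared, a choice made after their values were seen. The level of ENSGALG00000000249 relative to ENSGALG00000028564 was 0.992, 0.705 and 0.953 in HEP pituitaries and 1.22, 2.02 and 1.77 in LEP pituitaries. Its mean was 0.883 ± 0.156 in HEP and 1.67 ± 0.412 in LEP (SD, n = 3 each). The groups did not overlap, and the two-sided exact permutation p was 0.1, which is as low as 3 hens against 3 can reach. Relative to ENSGALG00000015824 the level was 1.44 ± 0.321 in HEP and 3.06 ± 1.04 in LEP, again without overlap (exact p = 0.1). The ratio of ENSGALG00000015824 to ENSGALG00000028564 was 0.617 ± 0.038 and 0.557 ± 0.064, and its groups overlapped (exact p = 0.3). As a share of the summed level of the 120 genes, ENSGALG00000000249 made up 24.9% to 32.5% in HEP and 37.0% to 48.9% in LEP. The FPKM values of this gene already did not overlap between the groups. Its ratios and its share restate the same values and are not separate evidence.

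The 2 members nearest to a call in the other direction were smaller differences. ENSGALG00000010825 held 50.8, 93.5 and 77.1 FPKM in the pituitaries of the HEP hens, against 40.4, 52.9 and 36.5 FPKM for LEP. HEP 1 lay just below the highest LEP hen, and the other HEP hens were above all LEP hens. The log2 difference was 0.73 (SE 0.24; limma, adjusted p = 1.00). ENSGALG00000014912 held 18.3, 19.9 and 20.03 FPKM in the HEP hens, against 18.3, 13.9 and 14.2 FPKM for LEP. Here the groups met, with HEP 1 and LEP 4 at nearly the same level. The log2 difference was 0.32 (SE 0.17; limma, adjusted p = 1.00).

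**Figure D5:**
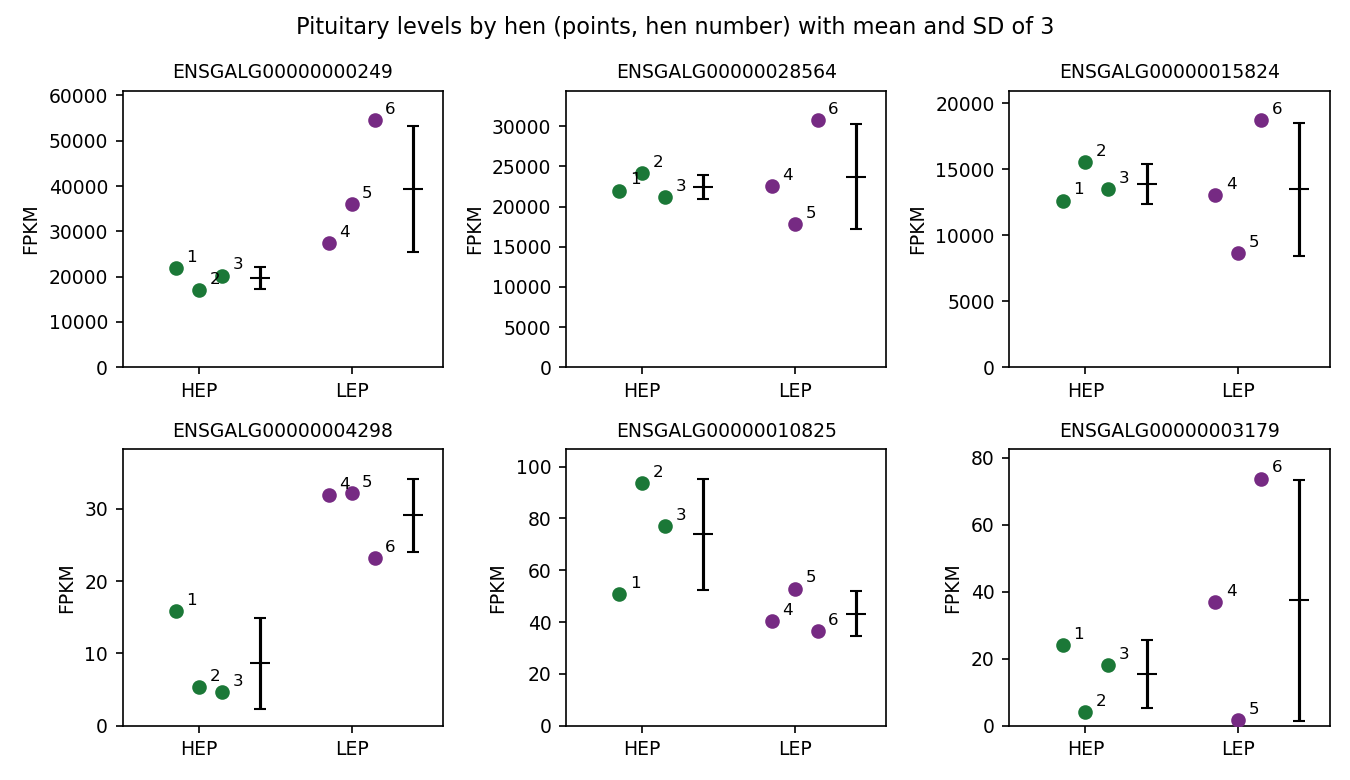
FPKM in the pituitary of each hen (points with the hen number) for 6 of the 120 genes, with HEP in green, LEP in purple, and the mean and SD of 3 hens beside the points. ENSGALG00000000249 and ENSGALG00000004298 do not overlap between the groups, and HEP 1 is the HEP hen nearest to LEP 4 in both.

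In the ovary, where the rule had made the 120 genes low, 52 of them had a mean of at least 1 FPKM and were tested between 2 HEP and 3 LEP libraries, while the other 68 were too low to be tested. None passed with limma, where 0.0243% of the 12326 genes tested passed as higher and 0.00811% as lower in HEP. An unadjusted p under 0.05 was found for 1 of the 52, beside 1.4% of all genes (172). The difference was positive for 18 and negative for 34 of the 52, which is 65.4% negative beside 54.0% of all genes tested in ovary. The median of the 52 was -0.06, beside -0.02 for all genes, but this order was not stable. Without HEP 3 the median of the members tested was 0.02 beside -0.05 for all genes, and without LEP 4 it was 0.12 beside -0.03. Without HEP 3, HEP was the single ovary HEP 1. The HEP ovaries lay above all LEP ovaries in 2 of the 52 (beside 4.68% of all genes) and below in 1 (beside 9.49%).

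The gene with the unadjusted p under 0.05 and without overlap was ENSGALG00000028564, the second most abundant of the 120 in pituitary. The ovaries of HEP hens 1 and 3 held 15.1 and 12.1 FPKM, and those of LEP hens 4, 5 and 6 held 31.0, 21.4 and 31.8 FPKM. The log2 difference was -0.98 (SE 0.23; limma, adjusted p = 1.00). In the pituitary its difference was -0.04 (SE 0.29; limma, adjusted p = 1.00). Whether the difference in ovary departs from that in pituitary was not tested.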

How the data were processed

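RNA of pituitary, ovary and hypothalamus was isolated as total RNA (RNeasy Mini Kit) and made into Illumina libraries, per the labels' protocols. The authors deposited FPKM values per Ensembl gene identifier, 1 column per library, and no source used here names the aligner, quantifier, build or annotation. Each column was matched to a sample by its description in the labels. The depth is unknown. Among genes above 0 and under 0.3 FPKM in both libraries of a pituitary or ovary pair, 5.18% to 20.8% of ratios lay within 0.05 (log2) of the commonest, too few to recover reads, so no counting interval is given.

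The members, lists and rules were chosen with earlier results of these data known. Differences between HEP and LEP were tested with limma 3.58.1 in R 4.3.3 (empirical Bayes with trend, two-sided) on log2(FPKM + 1) values, keeping genes whose mean was at least 1 FPKM, with Benjamini-Hochberg adjustment over all genes tested and a threshold of 0.05. A pseudocount of 1 understates changes of low genes. The fit was run on simulated data with independent noise in each gene and library. That setting holds no shift of a whole library, and its outcome is not reported here. By the labels a hen gave at most 1 library per tissue, so replicates are taken as hens. Genes named were those of highest level, largest difference, lowest p in each direction, extreme coefficient of variation or highest level outside the pituitary, and the last inside and the first outside the set. Alternatives were another pseudocount, filter, scaling or trend setting, fits of all 16 or of 13 libraries, leaving out each library, and other forms of the rule.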

Additional observations from a re-analysis of the deposited data

Results flagged for a closer look

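A signal above that of every pituitary was seen for 3 of the 120 genes in hypothalamus libraries that neither the rule nor the main fits used, each in 1 library only. The share of the other eligible genes with such a signal was not counted. ENSGALG00000006310 was listed at 199.3 FPKM in hypothalamus LEP 6, beside 10.53 to 21.6 FPKM in pituitary, and at 0 in hypothalamus HEP 1 and LEP 5. ENSGALG00000001932 was listed at 64.7 FPKM in hypothalamus HEP 1, beside 10.1 to 16.3 FPKM in pituitary, and at 0 in LEP 5 and LEP 6. ENSGALG00000003833 was listed at 21.2 FPKM in hypothalamus LEP 5, beside 12.7 to 19.8 FPKM in pituitary, and at 0 in HEP 1 and LEP 6. In hypothalamus HEP 3 and LEP 4 the 3 genes stood at no more than 1.10 FPKM. The 3 libraries concerned are those that list 6186 to 6843 rows above 0, and the part of this in the high values was not tested.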

How the results depend on the processing

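No paired analysis was possible because HEP and LEP share no hens. Of the 120 genes, 0 passed in the pituitary in 14 of 15 alternatives, and leaving out single libraries gave 0 to 1. Over all genes, 1 passed instead of 0 with a pseudocount of 0.1, in the fit of all 16 libraries and in that of 13, a fit chosen after seeing the data, and leaving out any of the 6 libraries gave 1 to 4. The median difference of the 120 lay between -0.15 and -0.08 over the other alternatives, including the 60 genes of largest difference, and between -0.19 and -0.01 with a library left out. The count of negative differences among the 120 lay between 76 and 86, and 65 to 95 with a library left out, with no share of all genes counted beside it. The median of all genes tested lay between -0.04 and 0.01, and between -0.09 and 0.06 with a library left out. In the ovary, 0 members passed in all 14 alternatives, and over all genes 3 to 4 passed, or 4 to 12 with a library left out (12 and 8 when HEP 1 or HEP 3 was left out, and 7 and 10 when LEP 5 or LEP 6 was). The members tested numbered 16 with a filter of at least 5 FPKM, 116 without a filter and 120 in the fits of all 16 and of 13 libraries. Those last fits filtered on the mean over all tissues. Members under 1 FPKM in ovary thus entered through their pituitary level, and a 0 for them adds nothing. The median of the members tested in ovary changed sign, from -0.06 to 0.02 after rescaling without the 20 top rows, and lay between -0.22 and 0.12 with a library left out. That rescaling moved the median of all genes tested in ovary the same way, from -0.02 to 0.08, so the members stayed below it there. With a library left out, the median of all genes lay between -0.05 and 0.03. The order then depended on the library. Without ovary HEP 3 the members stood above all genes, at 0.02 beside -0.05, and without LEP 4 at 0.12 beside -0.03. Without HEP 1, LEP 5 or LEP 6 they stood below. The cause was not tested. Other forms of the rule kept 103 to 120 of the 120 genes. With at most 3 libraries a group, and unknown depth, differences may go undetected, and the size that can be missed is not reported here. In the pituitary, log2 differences of -1.82 (ENSGALG00000004298) and -0.95 (ENSGALG00000000249), without overlap of the groups, did not pass in the main fit. These 2 genes were named for their low p, and 3.84% of all genes lay lower in HEP without overlap. Whether they are missed differences was not tested.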
